A study of Homo sapiens with 9 samples.

Results

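The genes described here are 44 genes of the S phase, the part of the cell cycle in which DNA is copied, out of 58735 genes in the deposited table. They are a list of genes chosen by function and matched by gene symbol, and all 44 were found. The study measured RNA in H1299, an established human lung cancer line labelled as lung adenocarcinoma cells, in 9 libraries. The group KO2 (3 libraries) and the group KO1 (3 libraries) are 2 lines, each grown from a single cell by limiting dilution, in which BCKDK had been edited with CRISPR. The group Vector (3 libraries), labelled wild type, is H1299 that received the lentiCRISPR v2 plasmid by lentivirus. The labels name no drug treatment, age or passage for any group. BCKDK is the kinase that phosphorylates and holds back the enzyme complex breaking down branched-chain amino acids. Each knockout group is 1 clone, and Vector is not said to be monoclonal, so an effect of BCKDK editing and a property of the founding cell cannot be told apart against Vector. No label says that the libraries of a group were separate cultures, so the p-values reflect spread among libraries that may be technical repeats.

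DNA replication starts at origins, where the origin recognition complex (ORC) with CDC6 and CDT1 loads the ring-shaped MCM2-7 helicase in G1 phase, a step called licensing. At the start of S phase, kinases and assembly factors join CDC45 and the GINS complex to the ring, and the helicase opens the double strand. Primase and 3 DNA polymerases then copy the strands, PCNA clamps the polymerases to DNA, and FEN1 and LIG1 join the short Okazaki fragments. Many of these genes are known targets of the E2F transcription factors, which the retinoblastoma protein RB holds back until cyclin E and its kinase act. They are widely read as markers of proliferation in lung cancer and other tumours.

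Values are FPKM, reads scaled to exon length and library depth, and are listed in replicate order. Fold changes come from a limma fit on log2(FPKM + 1) over all 9 libraries and 16426 genes whose mean reached 0.5 FPKM, and a gene passed at a Benjamini-Hochberg adjusted p under 0.05. The scale understates changes of low genes. Full separation of 2 groups of 3 libraries was common over all fitted genes. All KO2 libraries lay above all Vector libraries in 18.3% of genes and below them in 20.7%. For KO1 against Vector these shares were 26.0% and 24.1%, and for KO2 against KO1 24.8% and 28.8%. Statements below that groups did not overlap stand beside these shares. All 44 genes were fitted, with 34 to 7214 reads per gene and library, at a depth of 16002212 to 17090445 reads per library. BCKDK stood at 0.628, 0.576 and 0.287 FPKM in KO2, 1.91, 2.06 and 1.67 FPKM in KO1, against 13.7, 12.9 and 17.5 FPKM in Vector, so the transcript was low in every knockout library. Lung and epithelial defining markers were near 0 in all libraries: NKX2-1, SFTPB, SFTPC, EPCAM and CDH1 reached at most 0.169 FPKM, NAPSA 0.514 and KRT7 1.24. KRT8 (13.5 to 130 FPKM), KRT18 (53.2 to 359) and VIM (454 to 817) were present. Markers of blood, endothelial and fibroblast cells reached at most 0.506 FPKM (COL1A1), with CD3E at 0.

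In 2 groups replicate 3 differed from the rest, Vector replicate 3 and KO2 replicate 3. Set against the other libraries of its group, Vector replicate 3 gave a chi-square per degree of freedom of 47.2 and 39.8, where those gave 6.3 with each other, and KO2 replicate 3 gave 43.8 and 40.3, where those gave 2.49. Over the 44 genes, the deviation of Vector replicate 3 from the other Vector libraries followed the GC content of the transcript (Pearson r = 0.91 across genes of 1 library, no test; 0.72 over 16418 genes). It ran from -0.58 (RFC3) to 0.76 (E2F1) on the log2 scale, so GC-rich genes were high and GC-poor genes low in that library. For KO2 replicate 3 the r was 0.14 over the 44 genes and -0.26 over all, with deviations from -0.62 (PCNA) to 0.48 (POLA1). The fold changes of the 44 genes themselves had an r with GC content of 0.47 in KO2 against Vector, 0.31 in KO1 against Vector and 0.09 in KO2 against KO1. The part of GC content in the results was not tested beyond a fit with its trend removed.

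**Figure D1:**
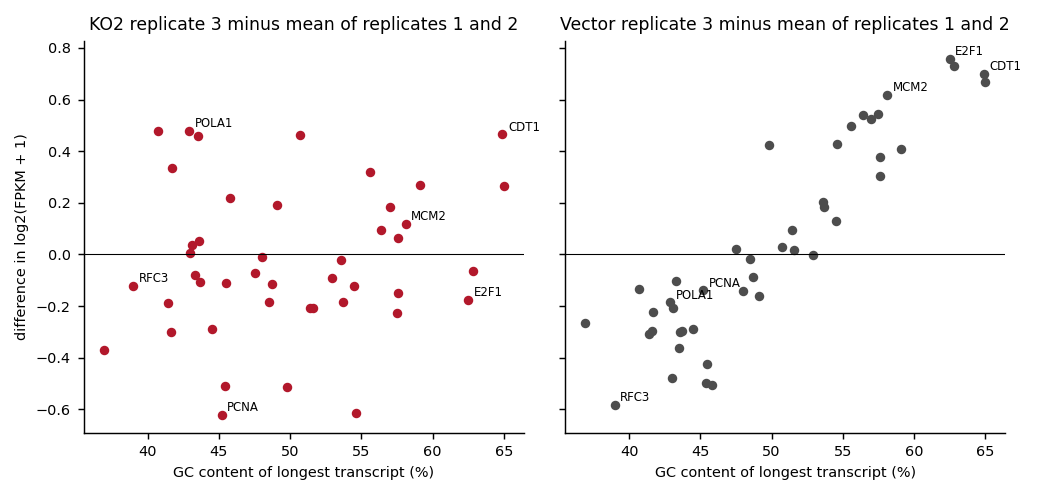
Deviation of replicate 3 from the mean of replicates 1 and 2, in log2(FPKM + 1), against GC content of the longest transcript in percent, for KO2 (left) and Vector (right). Each point is 1 of the 44 genes. The Vector points climb with GC content from RFC3 at -0.58 to E2F1 at 0.76, and the KO2 points show no such slope.

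Promoter windows are shown first because E2F motifs are what most of these genes are known to share. RefSeq (GRCh38.p14) windows from 250 bases before to 50 after the start were matched by symbol for 39 of the 44 genes, leaving MCM4, MCM5, GINS4, POLD3 and CCNE2. The words searched, on both strands, were TTTCCCGC, TTTGGCGC, TTTCGCGC and TTTGCCGC, and 2 of them overlap on opposite strands in TTTGGCGCGAAA. At least 1 word was found for 20 of 39 genes (51.3%), against 1090 of 27305 genes with a window (3.99%). The 6 windows below run from 160 bases before to 30 after the start, on the strand of the gene, with the words in capitals, read from either strand. The 6 genes were chosen among those with a word that changed, so they do not show how common words are among changed genes. MCM6, POLE2, CDC6 and RFC3 fell in at least 1 clone, and LIG1 and E2F1 rose in at least 1. CCNE1, POLD1, MCM10, ORC6 and CHAF1B passed in both clones and have a window without a word. MCM6 lies at chr2:135876414-135876603 (minus strand), POLE2 at chr14:49688185-49688374 (minus), CDC6 at chr17:40287719-40287908 (plus), RFC3 at chr13:33817989-33818178 (plus), LIG1 at chr19:48170315-48170504 (minus) and E2F1 at chr20:33686356-33686545 (minus).
MCM6: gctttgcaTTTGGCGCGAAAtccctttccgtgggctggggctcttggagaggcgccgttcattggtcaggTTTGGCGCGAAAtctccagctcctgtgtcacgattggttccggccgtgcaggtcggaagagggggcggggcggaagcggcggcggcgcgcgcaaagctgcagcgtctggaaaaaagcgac
POLE2: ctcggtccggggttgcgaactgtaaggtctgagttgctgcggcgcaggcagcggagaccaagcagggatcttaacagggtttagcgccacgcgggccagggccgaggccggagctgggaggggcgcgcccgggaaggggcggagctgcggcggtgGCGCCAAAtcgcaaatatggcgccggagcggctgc
CDC6: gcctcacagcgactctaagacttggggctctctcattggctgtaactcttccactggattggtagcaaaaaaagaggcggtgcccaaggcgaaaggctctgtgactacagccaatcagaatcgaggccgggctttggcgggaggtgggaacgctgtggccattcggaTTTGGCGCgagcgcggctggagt
RFC3: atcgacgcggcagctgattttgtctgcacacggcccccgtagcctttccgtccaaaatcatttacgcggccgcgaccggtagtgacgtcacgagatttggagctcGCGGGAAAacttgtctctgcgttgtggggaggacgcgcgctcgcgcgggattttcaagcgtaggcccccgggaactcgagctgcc
LIG1: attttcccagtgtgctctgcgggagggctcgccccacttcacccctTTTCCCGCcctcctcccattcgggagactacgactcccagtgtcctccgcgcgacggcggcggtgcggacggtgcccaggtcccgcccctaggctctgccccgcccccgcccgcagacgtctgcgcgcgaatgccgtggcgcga
E2F1: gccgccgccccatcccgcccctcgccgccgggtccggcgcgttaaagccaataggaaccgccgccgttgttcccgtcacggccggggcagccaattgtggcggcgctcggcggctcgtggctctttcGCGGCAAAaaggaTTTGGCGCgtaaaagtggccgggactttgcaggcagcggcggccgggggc
A word in a window is a match of letters, not a bound site. Of the 20 genes with a word, 1 rose and 5 fell in KO2, and 2 rose and 5 fell in KO1. Of the 19 genes with a window and no word, 1 rose and 7 fell in KO2, and 4 rose and 4 fell in KO1. Over all fitted genes, 12.9% were higher and 15.0% lower in KO2, and 17.4% and 16.7% in KO1. Genes with and without a word thus included rises and falls in both clones. The counts were not tested against each other or against the shares of all genes.

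In KO2 against Vector, there were 3 rises and 13 falls among the 44 genes, beside 12.9% of all fitted genes higher and 15.0% lower. That is 6.82% of the 44 higher and 29.5% lower, and the difference of these shares from those of all genes was not tested. POLD1, LIG1 and GINS4 rose. MCM3, MCM4, MCM7, ORC6, CDC6, MCM10, CDC45, GINS1, RFC2, RFC3, PRIM2, CHAF1B and CCNE1 fell. The median log2 fold change of the 44 genes was -0.25, beside 0.0 for all fitted genes. In KO1 against Vector, 6 rose (13.6% of the 44, beside 17.4% of all genes) and 10 fell (22.7%, beside 16.7%). RFC1, POLD1, LIG1, RRM2, TK1 and E2F1 rose, and MCM3, MCM4, MCM6, ORC6, CDC6, MCM10, GINS1, POLE2, CHAF1B and CCNE1 fell. The shares in KO1 lay near the background, and the median was -0.05, beside 0.01 for all genes. In KO2 against KO1, 4 genes were higher in KO2 (9.09%, beside 14.5% of all genes) and 12 lower (27.3%, beside 16.4%), with a median of -0.14 beside -0.02. Scaled to equal FPKM sums, 5 were higher and 7 lower, beside 17.8% and 11.1% of all genes. Both clones are set against the same Vector libraries, so the clones' fold changes share those values. In bulk RNA, a smaller share of cells in S phase and less of these transcripts per S phase cell cannot be told apart.

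**Figure D2:**
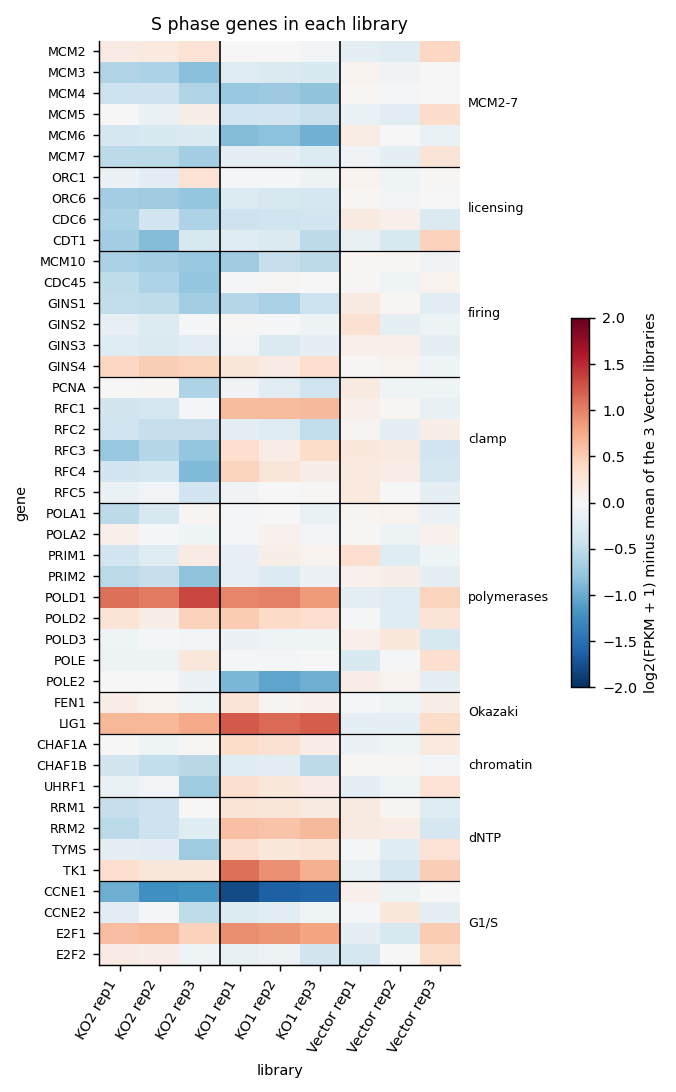
The 44 genes in each library, as log2(FPKM + 1) minus the mean of the 3 Vector libraries, in rows ordered by role, with KO2, KO1 and Vector from left to right. Red is above and blue below the Vector mean. CCNE1 is the darkest blue row in both clones and POLD1 and LIG1 the darkest red, while RFC1 and RRM2 are red in KO1 and not in KO2, and MCM6 and POLE2 are bluer in KO1 than in KO2.

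**Figure D3:**
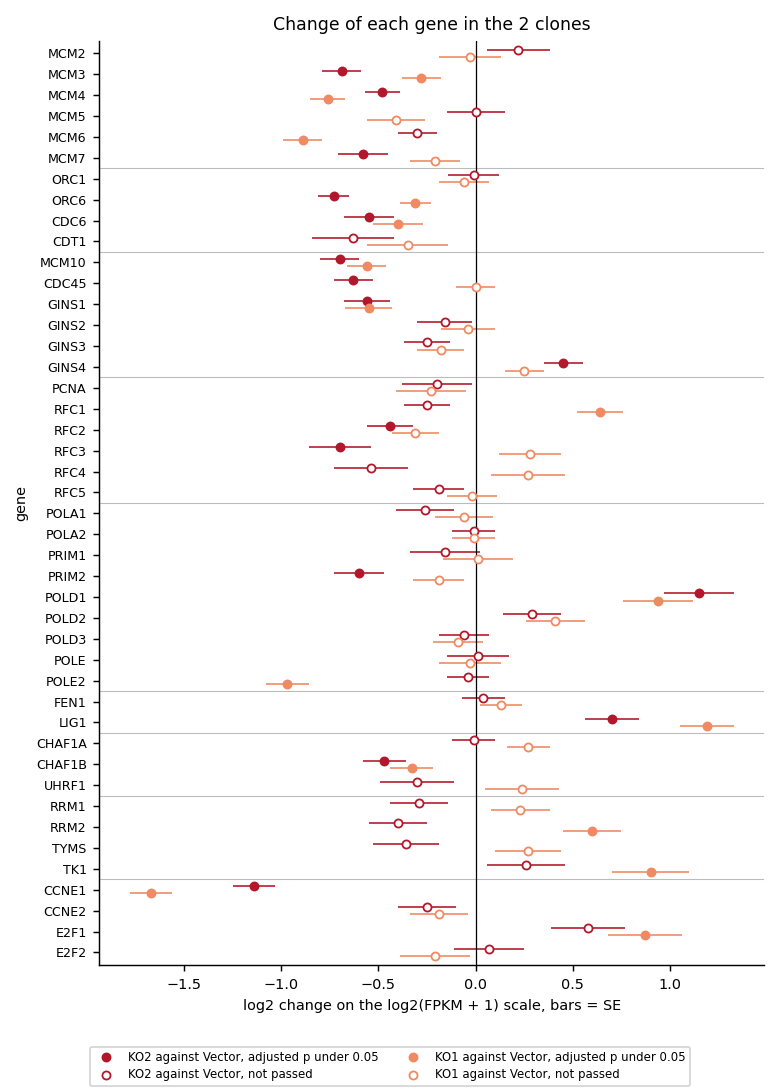
Log2 fold change of each of the 44 genes against Vector with its standard error, for KO2 and KO1, with filled points for an adjusted p under 0.05. Points run from -1.67 (CCNE1, KO1) to 1.19 (LIG1, KO1), and the clones lie on opposite sides of 0 for RFC3, RFC4 and RRM2.

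The MCM2-7 helicase genes were lower as a sum in both clones. The summed level of the 6 genes was 140, 138 and 131 FPKM in KO2 (136 ± 4.62, SD, n = 3), 145, 145 and 137 FPKM in KO1 (142 ± 4.46) and 185, 172 and 206 FPKM in Vector (188 ± 17.5). No KO2 or KO1 library reached the lowest Vector library. In each clone there were 0 rises and 3 falls among the 6 genes, beside 15.0% of all genes lower in KO2 and 16.7% in KO1, and MCM3 and MCM4 were the subunits that fell in both. Counts within a role rest on 2 to 9 genes and were not tested as groups. The subunits share a ring in equal numbers as proteins, yet their transcripts stood between 8.66 (MCM5) and 66.3 FPKM (MCM7) as means over all libraries. Exon lengths merge all annotated transcripts, which lowers the FPKM of genes with long rare isoforms.

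MCM3 stood at 19.6, 19.2 and 16.6 FPKM in KO2, 25.3, 24.7 and 24.5 FPKM in KO1 and 31.8, 28.8 and 30.7 FPKM in Vector. The 3 groups did not overlap, with KO2 lowest. For MCM3 the fold change was log2 -0.69 (SE 0.10, limma adjusted p = 0.000858) in KO2 and -0.28 (SE 0.10, limma adjusted p = 0.0467) in KO1, and KO2 minus KO1 was -0.41 (limma adjusted p = 0.0109). The KO1 call was lost, at -0.32 to -0.25, without Vector replicate 1 or 2, any KO1 library, or KO2 replicate 1 or 2, and the difference between clones without KO1 replicate 1 (-0.40), with equal FPKM sums (-0.30) and with the neighbours' median subtracted (-0.10). Genes within 5 Mb of MCM3 had a median log2 fold change of -0.46 in KO2 and -0.15 in KO1. With the neighbours' median subtracted in each library MCM3 stood at -0.23 in KO2 and -0.13 in KO1, and passed in neither. The KO1 call was also lost with limma-voom on recovered reads, the replicate block and a minimum mean of 5 FPKM.

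MCM4 stood at 22.7, 22.8 and 19.9 FPKM in KO2, 17.8, 18.2 and 17.3 FPKM in KO1 and 31.5, 30.4 and 30.5 FPKM in Vector. Here the groups did not overlap and KO1 was lowest. For MCM4 the fold change was log2 -0.48 (SE 0.09, limma adjusted p = 0.00439) in KO2 and -0.76 (SE 0.09, limma adjusted p = 0.000274) in KO1. Both calls passed in all 20 alternative settings, whereas the difference of KO2 over KO1 (log2 0.28, limma adjusted p = 0.0441) was lost at 0.24 to 0.29 without any 1 of Vector replicates 1 and 2, the 3 KO1 libraries and KO2 replicates 1 and 2, and at 0.09 with neighbours subtracted. MCM6 stood at 20.3, 20.7 and 21.0 FPKM in KO2, 13.6, 14.2 and 12.7 FPKM in KO1 and 28.7, 25.5 and 23.3 FPKM in Vector. KO1 was again lowest and no groups overlapped. For MCM6 the fold change was log2 -0.89 (SE 0.10, limma adjusted p = 0.000202) in KO1, and KO2 was higher than KO1 by 0.58 (limma adjusted p = 0.00247), calls that passed in all 20 settings. In KO2 it was -0.30 and just missed the test (limma adjusted p = 0.0503), and it passed at -0.37 without Vector replicate 3.

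MCM7 had the highest mean of the 44 genes, with 54.3, 53.8 and 48.6 FPKM in KO2, 69.4, 69.0 and 64.7 FPKM in KO1 and 74.5, 69.1 and 93.6 FPKM in Vector. KO2 was below both other groups, while KO1 and Vector overlapped. For MCM7 the log2 fold change in KO2 was -0.58 (SE 0.13, limma adjusted p = 0.00875) and passed in all 20 settings, and in KO1 it stood at -0.21 without passing. With the GC and length trend removed, MCM7 passed in KO1 at -0.34 (limma adjusted p = 0.000837). The difference between clones stood at -0.37 and passed without Vector replicate 2 or 3, at the same -0.37. MCM5 (0.40 between clones, 9.46 FPKM in KO2 and 6.90 FPKM in KO1) and MCM2 passed in no comparison of the main fit. MCM2 had 13.1, 13.5 and 14.5 FPKM in KO2, 11.6, 11.5 and 11.1 FPKM in KO1 and 10.2, 9.71 and 15.8 FPKM in Vector, where replicate 3 stood far above the others. Without Vector replicate 3 MCM2 passed in KO2 at 0.42 and in KO2 against KO1 at 0.24, so its place among genes that did not pass rested on that library. For MCM5 the difference between clones passed at 0.40 without Vector replicate 3, and KO1 against Vector (-0.41) passed at -0.51 without Vector replicate 2. With equal FPKM sums MCM5 passed at -0.49 in KO1 against Vector and at 0.51 between clones. With the GC and length trend removed it passed at -0.57 in KO1 against Vector (limma adjusted p = 0.000574). About 23.6% of the MCM2 exons lie opposite another gene, and no strand setting is given in the sources used here.

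Of the 4 licensing genes, ORC6 and CDC6 fell in both clones and 0 rose, beside 15.0% of all genes lower in KO2 and 16.7% in KO1. ORC6, the smallest ORC subunit, stood at 3.07, 3.04 and 2.87 FPKM in KO2, 4.46, 4.30 and 4.22 FPKM in KO1 and 5.80, 5.37 and 5.68 FPKM in Vector, with no overlap between groups. For ORC6 the fold change was log2 -0.73 (SE 0.08, limma adjusted p = 0.000286) in KO2 and -0.31 (SE 0.08, limma adjusted p = 0.018) in KO1, and the difference between clones was -0.41 (limma adjusted p = 0.00523). Its neighbours had medians of 0.00 in KO2 and 0.01 in KO1, and with these subtracted ORC6 still passed at -0.73 in KO2 and -0.32 in KO1. The KO1 call was lost, at -0.33 to -0.29, without Vector replicate 1 or any KO1 library. CDC6, the ATPase that completes loading with ORC, had 2.23, 2.83 and 2.26 FPKM in KO2, 2.75, 2.78 and 2.82 FPKM in KO1 and 4.67, 4.38 and 3.11 FPKM in Vector. Both clones lay below Vector and overlapped each other. For CDC6 the fold change was log2 -0.55 (SE 0.13, limma adjusted p = 0.0155) in KO2 and -0.40 (SE 0.13, limma adjusted p = 0.0443) in KO1. Neither held with the neighbours' median subtracted (-0.37 in KO2 and -0.29 in KO1). The KO2 call was lost, at -0.50 to -0.46, without Vector replicate 1 or 2 or KO2 replicate 1, and the KO1 call, at -0.41 to -0.31, in 7 of 9 fits with 1 library less, all but those without Vector replicate 3 or KO2 replicate 3. ORC1, the ATPase subunit of ORC, averaged 5.87 ± 1.35 FPKM in KO2, 5.59 ± 0.154 in KO1 and 5.86 ± 0.402 in Vector and did not pass. CDT1, the partner of CDC6 in loading, averaged 20.2 ± 4.27 FPKM in KO2, 24.4 ± 2.52 in KO1 and 32.2 ± 9.98 in Vector (SD, n = 3 each), where replicate 3 alone reached 43.5 FPKM. Its fold change of -0.63 in KO2 did not pass (limma adjusted p = 0.0554) but did at -0.78 without Vector replicate 2 and at -0.78 without KO2 replicate 3.

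Among the 6 genes of origin firing, MCM10, CDC45 and GINS1 fell in KO2 and GINS4 rose, while MCM10 and GINS1 fell in KO1. Over all genes 15.0% fell and 12.9% rose in KO2, and 16.7% fell in KO1. MCM10, a firing factor that activates the assembled helicase, had 2.39, 2.27 and 2.15 FPKM in KO2, 2.23, 2.86 and 2.69 FPKM in KO1 and 4.42, 4.43 and 4.06 FPKM in Vector. Both clones were below every Vector library. For MCM10 the fold change was log2 -0.70 (SE 0.10, limma adjusted p = 0.00104) in KO2 and -0.56 (SE 0.10, limma adjusted p = 0.00247) in KO1. With neighbours at -0.37 and -0.28, subtracting them left -0.33 in KO2 and -0.28 in KO1, which did not pass. CDC45, the helicase cofactor, stood at 6.72, 6.18 and 5.45 FPKM in KO2, 9.69, 10.2 and 10.1 FPKM in KO1 and 10.2, 9.34 and 10.5 FPKM in Vector. KO2 alone was low, and KO1 lay within the Vector range. For CDC45 the log2 fold change in KO2 was -0.63 (SE 0.10, limma adjusted p = 0.00159), and KO2 minus KO1 was -0.63 (limma adjusted p = 0.00143), both in all 20 settings.

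GINS1 had 2.73, 2.70 and 2.26 FPKM in KO2, 2.53, 2.36 and 2.89 FPKM in KO1 and 4.93, 4.37 and 3.55 FPKM in Vector. The clones overlapped each other and lay below Vector. For GINS1 the fold change was log2 -0.56 (SE 0.12, limma adjusted p = 0.00908) in KO2 and -0.55 (SE 0.12, limma adjusted p = 0.0083) in KO1, of which the second did not hold with neighbours subtracted (-0.35). GINS4 averaged 2.42 ± 0.0914 FPKM in KO2, 1.98 ± 0.165 in KO1 and 1.51 ± 0.141 in Vector (SD, n = 3 each), and rose in KO2 by 0.45 on the log2 scale (limma adjusted p = 0.00835), which left 0.17 without its neighbours (0.28). About 23.6% of the GINS4 exons lie opposite other genes, so its counts are uncertain. GINS2 and GINS3, the remaining subunits of the complex, passed in no comparison. The 4 GINS genes thus did not move alike, and their sum was 10.4 ± 0.181 FPKM in KO2, 10.5 ± 0.527 in KO1 and 12.3 ± 1.94 in Vector. GINS3 passed without Vector replicate 3, at -0.35 in KO2 and -0.28 in KO1.

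PCNA, the sliding clamp, did not pass in any comparison, at 44.2, 45.5 and 28.8 FPKM in KO2, 42.2, 38.2 and 33.4 FPKM in KO1 and 50.7, 41.7 and 41.7 FPKM in Vector. KO2 replicate 3 was the lowest of the 9. The summed level of the clamp loader RFC, which opens PCNA and sets it on DNA, separated the clones. The 5 RFC genes summed to 58.1, 59.5 and 60.2 FPKM in KO2 (59.3 ± 1.08, SD, n = 3), to 102, 97.5 and 97.3 FPKM in KO1 (98.9 ± 2.61) and to 86.3, 80.3 and 69.7 FPKM in Vector (78.8 ± 8.43). In these sums KO2 lay below and KO1 above every Vector library. RFC1 made up the largest part, at means of 26.8 FPKM in KO2, 50.1 in KO1 and 31.9 in Vector. Of the 6 clamp and clamp loader genes, 0 rose and 2 fell in KO2, and 1 rose and 0 fell in KO1. Over all genes 12.9% rose and 15.0% fell in KO2, and 17.4% rose and 16.7% fell in KO1. Between the clones 3 were lower in KO2, beside 16.4% of all genes. RFC2 (-0.13) and RFC5 (-0.17) did not pass there.

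RFC1, the large subunit, stood at 24.5, 24.6 and 31.2 FPKM in KO2, 50, 50 and 50.4 FPKM in KO1 and 34.2, 32.8 and 28.6 FPKM in Vector. KO1 was above all other libraries, while KO2 overlapped Vector. For RFC1 the fold change was log2 0.64 (SE 0.12, limma adjusted p = 0.00331) in KO1, and KO2 minus KO1 was -0.89 (limma adjusted p = 0.000657), both in all 20 settings. In KO2 against Vector RFC1 stood at -0.25 without passing, and passed at -0.32 without Vector replicate 3 and at -0.36 without KO2 replicate 3. RFC3 had 6.78, 7.88 and 6.64 FPKM in KO2, 15.6, 13.5 and 15.9 FPKM in KO1 and 14.2, 13.8 and 9.03 FPKM in Vector. KO2 was below every other library, and KO1 overlapped Vector. For RFC3 the log2 fold change in KO2 was -0.70 (SE 0.16, limma adjusted p = 0.012), and KO2 minus KO1 was -0.98 (limma adjusted p = 0.002), beside neighbours at -0.51 between clones, which left -0.47 once subtracted and still passed.

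RFC4 had 8.41, 8.64 and 5.69 FPKM in KO2, 15.7, 13.6 and 12.3 FPKM in KO1 and 13.0, 12.6 and 8.75 FPKM in Vector. KO2 again lay below both other groups. For RFC4 the difference of KO2 from KO1 was -0.81 (SE 0.19, limma adjusted p = 0.0101), and that of KO2 from Vector was -0.54 without passing (limma adjusted p = 0.0587), passing at -0.70 without Vector replicate 3. RFC2 averaged 10.4 ± 0.216 FPKM in KO2, 11.5 ± 1.31 in KO1 and 14.5 ± 1.78 in Vector (SD, n = 3 each), and fell in KO2 by 0.44 on the log2 scale (limma adjusted p = 0.0224). That call was lost, at -0.45 to -0.41, without Vector replicate 1 or KO2 replicate 1 or 2, and with neighbours subtracted (-0.27). In KO1 RFC2 stood at -0.31 and passed at -0.41 without Vector replicate 2. RFC5 passed nowhere. Named pseudogenes exist for PCNA, RFC3 and RFC5, so their counts are uncertain.

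Among the 9 polymerase and primase genes, POLD1 rose in both clones, PRIM2 fell in KO2 and POLE2 fell in KO1. Over all genes 12.9% rose and 15.0% fell in KO2, and 17.4% rose and 16.7% fell in KO1. POLD1, the catalytic subunit of polymerase delta, which copies the lagging strand, stood at 20.1, 19.2 and 23.8 FPKM in KO2, 18.3, 18.7 and 16.7 FPKM in KO1 and 7.56, 7.33 and 12.4 FPKM in Vector. Every knockout library was above every Vector library. For POLD1 the fold change was log2 1.15 (SE 0.18, limma adjusted p = 0.00161) in KO2 and 0.94 (SE 0.18, limma adjusted p = 0.00376) in KO1, in all 20 settings. Its neighbours on chromosome 19 had medians of 0.52 and 0.50, and with these subtracted POLD1 still passed at 0.63 in KO2 and 0.44 in KO1. The accessory subunit POLD2, second in mean level at 49.5 FPKM, stood at 0.29 in KO2 and 0.41 in KO1 without passing. It passed at 0.42 in KO2 and 0.55 in KO1 without Vector replicate 3, and at 0.41 in KO1 without KO2 replicate 3. POLD3 was at -0.06 and -0.09, and passed at -0.22 in KO2 and -0.25 in KO1 without Vector replicate 3. The delta subunits therefore did not rise together.

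POLE2, the second subunit of polymerase epsilon, which copies the leading strand, had 4.79, 4.85 and 4.41 FPKM in KO2, 2.12, 1.83 and 1.98 FPKM in KO1 and 5.41, 5.12 and 4.10 FPKM in Vector. KO1 alone was low, and KO2 overlapped Vector. For POLE2 the log2 fold change in KO1 was -0.97 (SE 0.11, limma adjusted p = 0.000186), and KO2 was higher than KO1 by 0.93 (limma adjusted p = 0.000302), both in all 19 settings that fitted the gene. With neighbours at -0.43 subtracted, POLE2 still passed in KO1 at -0.54, and between clones at 0.39. POLE, the catalytic partner, stood at 0.01 in KO2 and -0.03 in KO1 without passing. PRIM2, the large primase subunit, had 3.24, 3.46 and 2.53 FPKM in KO2, 4.46, 4.08 and 4.67 FPKM in KO1 and 5.51, 5.65 and 4.35 FPKM in Vector. KO2 was below both groups, which overlapped each other. For PRIM2 the log2 fold change in KO2 was -0.60 (SE 0.13, limma adjusted p = 0.00753), beside neighbours at -0.41, and it stood at -0.19 without them. The difference between clones (-0.41, limma adjusted p = 0.0342) was lost, at -0.46 to -0.31, without any 1 KO1 library or KO2 replicate 1 or 3, with equal FPKM sums (-0.32), and with neighbours subtracted (-0.04). PRIM1, POLA1 and POLA2, which with PRIM2 form the primase complex, passed in no comparison, although POLA1 passed without KO2 replicate 3, at -0.42 against Vector and -0.36 against KO1. POLA2 was the lowest of the 44 genes at 1.03 FPKM, and 35.1% of its exons overlap another gene on the same strand.

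LIG1, the ligase that seals Okazaki fragments, rose in both clones and more in KO1. It stood at 11.1, 11.1 and 11.9 FPKM in KO2, 16.8, 15.8 and 16.7 FPKM in KO1 and 5.74, 5.72 and 8.78 FPKM in Vector, with no overlap. For LIG1 the fold change was log2 0.70 (SE 0.14, limma adjusted p = 0.00687) in KO2 and 1.19 (SE 0.14, limma adjusted p = 0.000291) in KO1, in all 20 settings, and still 0.43 and 0.97 after subtracting neighbours. KO2 minus KO1 was -0.50 (limma adjusted p = 0.028), a call lost at -0.52 to -0.48 without any 1 KO1 library or KO2 replicate 1 or 2, and at -0.38 with equal FPKM sums. FEN1, which trims the fragments before ligation, averaged 11.6 ± 0.944 FPKM in KO2, 12.4 ± 1.03 in KO1 and 11.2 ± 0.948 in Vector (SD, n = 3 each) and passed nowhere.

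Of the 3 genes that package and mark new DNA, 0 rose and 1 fell in each clone. Over all genes 15.0% fell in KO2 and 16.7% in KO1. The gene that fell was CHAF1B, a subunit of the histone chaperone CAF-1. It averaged 2.92 ± 0.247 FPKM in KO2, 3.34 ± 0.478 in KO1 and 4.45 ± 0.194 in Vector (SD, n = 3 each), all knockout libraries being below Vector. Log2 fold changes were -0.47 (limma adjusted p = 0.0111) in KO2 and -0.33 (limma adjusted p = 0.0401) in KO1. Subtracting neighbours left -0.30 in KO2 and none of the change in KO1, and neither passed. The KO1 call was lost, at -0.38 to -0.24, in 7 of 9 fits without 1 library, all but those without Vector replicate 3 or KO2 replicate 3. CHAF1A, its partner, and UHRF1, which recruits the maintenance methyltransferase to new DNA, passed in no comparison. In KO2 against KO1 CHAF1A stood at -0.29 and UHRF1 at -0.54, and both passed without Vector replicate 3 at those values. UHRF1 also passed there without KO2 replicate 2 (-0.66), and CHAF1A in KO1 against Vector at 0.38 without Vector replicate 3.

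The 4 nucleotide supply genes all passed as lower in KO2 than in KO1, beside 16.4% of all genes. Against Vector RRM2 and TK1 rose in KO1, beside 17.4% of all genes, while 0 passed in KO2. With neighbours subtracted, RRM2 kept its call between the clones (-0.89), and RRM1 (-0.40), TYMS (-0.44) and TK1 (-0.37) lost theirs. With equal FPKM sums, where 11.1% of all genes were lower, TYMS (-0.52) and TK1 (-0.53) lost it as well. RRM1 and TK1 also lost it with no filter and with the replicate block. RRM2, the small and cycle-regulated subunit of ribonucleotide reductase, which makes deoxynucleotides, stood at 8.75, 9.64 and 10.9 FPKM in KO2, 20.5, 20 and 21.1 FPKM in KO1 and 15.1, 14.7 and 10.2 FPKM in Vector. KO1 was above all other libraries, and KO2 overlapped Vector only through Vector replicate 3. For RRM2 the log2 fold change in KO1 was 0.60 (SE 0.15, limma adjusted p = 0.0125), and KO2 minus KO1 was -1.0 (limma adjusted p = 0.00102). In KO2 against Vector RRM2 stood at -0.40 without passing, and passed at -0.57 without Vector replicate 3. RRM1, the large subunit, had 14.4, 14.9 and 20.5 FPKM in KO2, 24.6, 24.3 and 23.1 FPKM in KO1 and 23.1, 21.2 and 17 FPKM in Vector. Here KO2 replicate 3 stood above the other KO2 libraries, and KO2 as a group was below KO1. For RRM1 the difference of KO2 from KO1 was -0.52 (SE 0.15, limma adjusted p = 0.0296), lost at -0.55 to -0.43 without any 1 KO1 library or KO2 replicate 1 or 2. Against Vector, KO2 stood at -0.29 and passed at -0.44 without KO2 replicate 3.

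TYMS, the thymidylate synthase, had 11.1, 10.8 and 7.35 FPKM in KO2, 16.0, 14.8 and 15.5 FPKM in KO1 and 12.3, 10.5 and 15.6 FPKM in Vector. The clones did not overlap, and each overlapped Vector. For TYMS the difference of KO2 from KO1 was -0.63 (SE 0.17, limma adjusted p = 0.021), lost at -0.66 to -0.61 without any 1 KO1 library. About 46.6% of the TYMS exons lie opposite other genes, and 20.2% of the RRM2 exons overlap another gene on the same strand. TYMS and RRM2 also have named pseudogenes, so both are uncertain. TK1, the thymidine kinase of the salvage route, had 25.6, 23.8 and 23.6 FPKM in KO2, 44.2, 38.7 and 33.6 FPKM in KO1 and 18.2, 15.6 and 28.7 FPKM in Vector. KO1 was above every other library, and Vector replicate 3 lay above all of KO2. For TK1 the log2 fold change in KO1 was 0.90 (SE 0.20, limma adjusted p = 0.00775), in all 20 settings. KO2 minus KO1 was -0.65 (limma adjusted p = 0.0353), lost at -0.68 to -0.55 without KO1 replicate 1 or 2 or any 1 KO2 library. Against Vector TK1 stood at 0.26 in KO2 and passed at 0.50 without Vector replicate 3.

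CCNE1, cyclin E1, which activates CDK2 at the entry to S phase, had the largest change of the 44 genes in each clone but for POLD1 in KO2. It stood at 2.22, 1.71 and 1.77 FPKM in KO2, 0.836, 1.06 and 1.09 FPKM in KO1 and 5.81, 4.93 and 5.36 FPKM in Vector. The groups were fully separate, with KO1 lowest. Ratios of mean FPKM to Vector were 0.354 in KO2 and 0.185 in KO1. For CCNE1 the fold change was log2 -1.14 (SE 0.11, limma adjusted p = 0.000116) in KO2 and -1.67 (SE 0.11, limma adjusted p = 8.1e-06) in KO1, and KO2 was higher than KO1 by 0.54 (limma adjusted p = 0.00633). The gene lies on chromosome 19 at 29811898 to 29824308 of hg38, and the 48 fitted genes within 5 Mb had median log2 fold changes of -1.02 in KO2 and -0.86 in KO1. With that median subtracted CCNE1 stood at -0.12 in KO2, which did not pass, and at -0.81 in KO1, which did. Whether DNA copy number at this locus differs between the lines was not tested.

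E2F1, the activating transcription factor, had 17.6, 18.1 and 15.7 FPKM in KO2, 22.0, 21.4 and 20 FPKM in KO1 and 9.71, 8.66 and 16.2 FPKM in Vector. KO1 was above all other libraries, and KO2 overlapped Vector only at Vector replicate 3. For E2F1 the log2 fold change in KO1 was 0.87 (SE 0.19, limma adjusted p = 0.00784), in all 20 settings, and in KO2 it was 0.58 without passing (limma adjusted p = 0.0503). Without Vector replicate 3, E2F1 passed in KO2 at 0.83 and in KO2 against KO1 at -0.29. CCNE2, cyclin E2, and E2F2 passed in no comparison, at means of 1.57 and 1.97 FPKM. Cyclin E1 was thus low while E2F1 was high in KO1, within the same libraries.

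**Figure D4:**
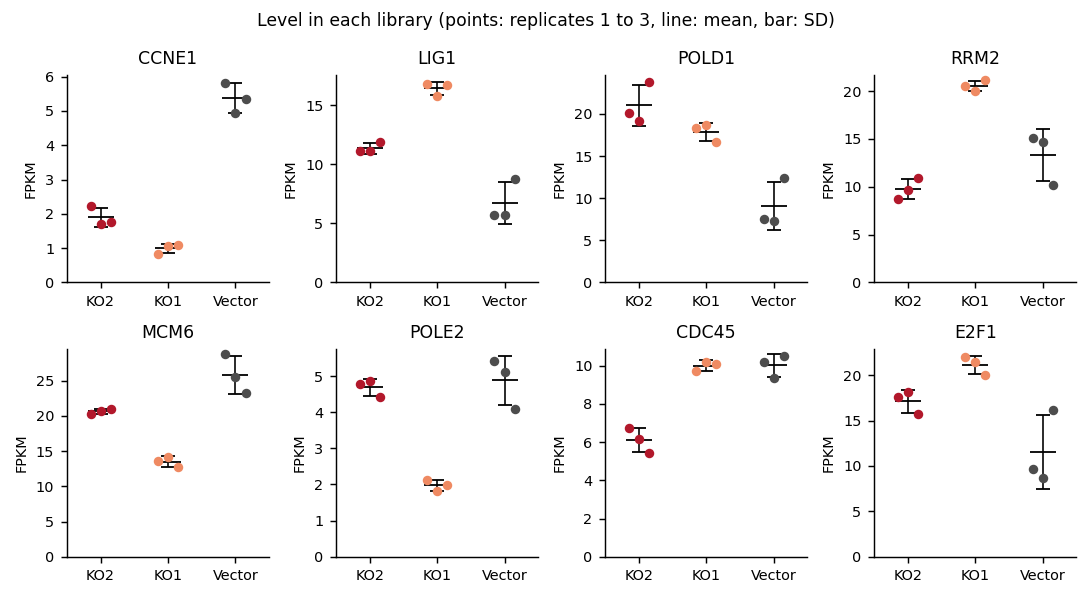
Levels in FPKM of 8 of the genes in each library, with points for replicates 1 to 3, a line at the mean and bars of 1 SD, for KO2, KO1 and Vector. CCNE1 is low in both clones, LIG1 and POLD1 high in both, RRM2 splits the clones around Vector, MCM6 and POLE2 are lowest in KO1, and CDC45 is low in KO2 (mean 6.12 FPKM).

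The 44 genes were also set against their chromosomal neighbours. Subtracting, in each library, the median of fitted genes within 5 Mb took away 19 of the 48 calls over the 3 comparisons and added 6. In KO2 against Vector it left 2 genes higher and 9 lower, beside 13.0% and 13.1% of all genes, and in KO1 6 higher and 5 lower, beside 14.5% and 14.8%. Between the clones 3 were then higher in KO2 and 10 lower, beside 14.1% of all genes in each direction. MCM3, CDC6, MCM10, GINS4, RFC2, PRIM2, CHAF1B and CCNE1 lost their call in KO2, while MCM4, MCM7, ORC6, CDC45, GINS1, RFC3, POLD1 and LIG1 passed with and without it. In KO1, MCM3, CDC6, MCM10, GINS1 and CHAF1B lost their call. Between the clones MCM3, MCM4, PRIM2, RRM1, TYMS and TK1 lost theirs. The added calls were CDT1 (-0.56), RFC4 (-0.59) and UHRF1 (-0.48) in KO2 against Vector. Between the clones they were MCM7 (-0.26), UHRF1 (-0.52) and CCNE2 (-0.51). The part of copy number or of regional control in these values was not tested.

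**Figure D5:**
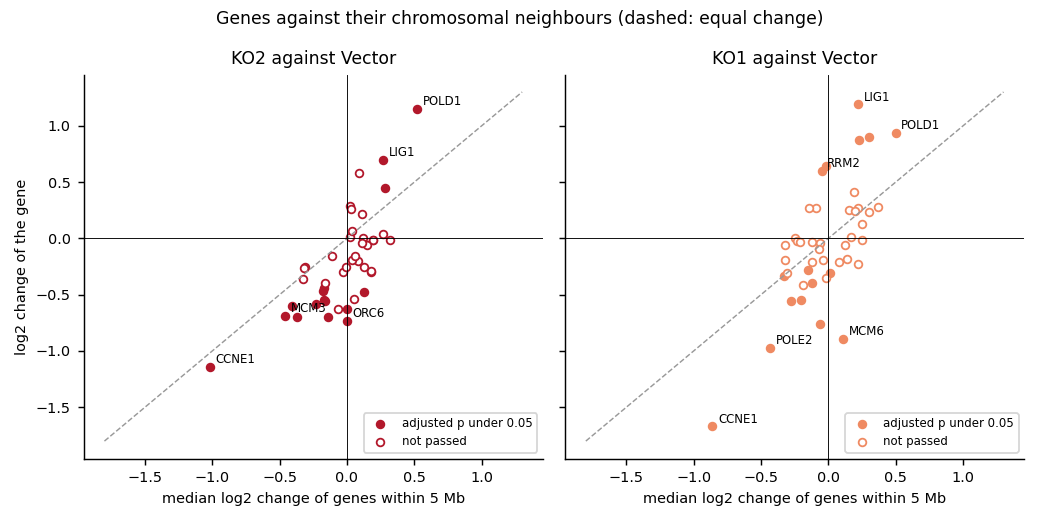
Log2 fold change of each of the 44 genes against the median log2 fold change of fitted genes within 5 Mb, for KO2 (left) and KO1 (right) against Vector, with filled points for an adjusted p under 0.05 and a dashed line of equal change. In KO2, CCNE1 (-1.14) and MCM3 (-0.69) lie near the line beside neighbours at -1.02 and -0.46, while ORC6 (-0.73) lies far below neighbours at 0.00, and in KO1, MCM6 and LIG1 lie far from the line.

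Leaving out both libraries that stood apart raised the counts, for the 44 genes and for all genes alike. In KO2 against Vector, 7 of the 44 genes were then higher (15.9%, beside 24.1% of all genes) and 22 lower (50%, beside 25.4%), with a median of -0.32. In KO1 against Vector, 11 were higher (25.0%, beside 29.5%) and 14 lower (31.8%, beside 27.3%), with a median of -0.06. In KO2 against KO1, 6 were higher (13.6%, beside 21.6%) and 18 lower (40.9%, beside 26.1%). Genes that did not pass in KO2 against Vector with all libraries and did here were E2F1 (0.89), TK1 (0.52), MCM2 (0.38) and POLD2 (0.33) on the higher side. On the lower side were RRM2 (-0.64), RRM1 (-0.56), CDT1 (-0.55), RFC4 (-0.53), POLA1 (-0.48), RFC1 (-0.43), MCM6 (-0.39), GINS3 (-0.37) and POLD3 (-0.22). All 48 calls of the full fit passed in this one too. MCM2 in KO1 stood at 0.18 and passed here, against -0.03 without passing in the full fit.

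Other genes of the same processes, none of them among the 44, were counted from lists by function. Their counts stand beside 12.9% of all genes higher and 15.0% lower in KO2, and 17.4% higher and 16.7% lower in KO1, and were not tested against these shares. Of 17 further genes of origin licensing and firing, 1 rose and 8 fell (47.1%) in KO2 (median log2 fold change -0.37) and 1 rose and 7 fell (41.2%) in KO1 (-0.30). RECQL4, a helicase needed for firing, rose to 16.9 ± 1.27 FPKM in KO2 and 16.4 ± 1.40 in KO1, against 7.70 ± 3.53 in Vector (log2 1.11 and 1.07, limma adjusted p = 0.00682 and 0.0065). GMNN, geminin, the inhibitor of CDT1, fell to 7.07 ± 1.17 FPKM in KO2 and 10.1 ± 0.45 in KO1, against 14.8 ± 2.54 in Vector (log2 -0.96 and -0.49, limma adjusted p = 0.00129 and 0.0267). Of 27 further fork and chromatin assembly genes, 2 rose and 10 fell (37.0%) in KO2 (median -0.26) and 5 rose (18.5%) and 7 fell (25.9%) in KO1 (-0.10). SUPT16H, a subunit of the histone chaperone FACT, fell in KO2 (-0.63) and KO1 (-0.72), whereas its partner SSRP1 rose in KO1 (0.69) and stood at 0.10 in KO2. Of 15 further nucleotide supply genes, 0 rose and 3 fell (20%) in KO2 (median -0.26) and 2 rose (13.3%) and 2 fell in KO1 (-0.08), shares near those of all genes except for the rises in KO2. CTPS1, a CTP synthase, fell in KO2 (-0.75), and DTYMK, the thymidylate kinase, rose in KO1 (0.78).

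Among 20 further genes of E2F and RB control there were 0 rises and 4 falls in KO2 against Vector (median -0.18), and the falls, 20%, lay near the 15.0% of all genes. In KO1 9 rose (45%, beside 17.4% of all genes) and 1 fell (median 0.30), and 1 was higher and 13 lower in KO2 than in KO1 (65%, beside 16.4% lower over all genes; median -0.60). Without Vector replicate 3 and KO2 replicate 3 there were 0 rises and 8 falls in KO2, 11 rises and 2 falls in KO1, and 2 higher and 15 lower between the clones. Over all genes, that fit gave 24.1% higher and 25.4% lower in KO2, 29.5% and 27.3% in KO1, and 21.6% and 26.1% between the clones. E2F7, a repressing E2F factor, had 3.93, 4.23 and 3.48 FPKM in KO2, 39.9, 42.4 and 43.2 FPKM in KO1 and 8.55, 9.47 and 7.57 FPKM in Vector. It was low in KO2 and high in KO1, each apart from Vector. For E2F7 the fold change was log2 -0.96 (SE 0.11, limma adjusted p = 0.000236) in KO2 and 2.17 (SE 0.11, limma adjusted p = 1.36e-06) in KO1, and KO2 minus KO1 was -3.14 (limma adjusted p = 3.11e-07). CDKN1A, the p21 inhibitor of cyclin-dependent kinases, averaged 13.6 ± 2.54 FPKM in KO2, 51.7 ± 2.58 in KO1 and 16.8 ± 2.77 in Vector (SD, n = 3 each), and rose in KO1 by 1.58 (limma adjusted p = 8.07e-05) while it stood at -0.29 in KO2. SKP2, which targets p27 and other cell cycle inhibitors for breakdown, fell in KO2 (-0.80) and stood at -0.07 in KO1. The proliferation marker MKI67 had 13.1, 13.1 and 26.2 FPKM in KO2, 18.8, 20.6 and 20.2 FPKM in KO1 and 15.0, 18.9 and 18.7 FPKM in Vector, and passed in no comparison with all libraries. KO2 replicate 3 alone was high, and the other KO2 libraries lay below every KO1 and Vector library. Without KO2 replicate 3, MKI67 passed at log2 -0.39 in KO2 against Vector (limma adjusted p = 0.0393) and -0.57 in KO2 against KO1 (limma adjusted p = 0.00855).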

How the data were processed

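Per the labels' protocols, RNA of the 9 libraries came from TRIzol extraction, an NEBNext Ultra RNA kit and an Illumina NovaSeq run. The authors deposited FPKM per gene. CASAVA 1.6, HISAT2 2.0.5, featureCounts 1.5.0-p3 and hg38 are named in the submitters' processing notes. Not given in the sources used here are their order, options and strand setting, and how multi-mapped reads were treated. The unit was read from the values: multiplied by the merged exon length of GENCODE 29, 100.0% of the deposited FPKM values gave whole reads within 0.02 reads. Reads could thus be set beside each value, and depth was nearly equal between libraries.

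Values were taken as log2(FPKM + 1). The 16426 genes whose mean reached 0.5 FPKM were fitted with limma 3.58.1 (R 4.3.3, trended empirical Bayes), with the group as the only term and Benjamini-Hochberg adjustment over all genes in each comparison. The procedure was tested on simulated data. The simulated libraries had equal spread and none stood apart. That test thus does not cover libraries like Vector replicate 3 and KO2 replicate 3. The 44 genes and the lists were chosen with earlier results of these data known. Values in every library are given for genes past the test with a log2 fold change of at least 0.5 in any comparison, and other lists give at most 2 genes a direction. MCM2, PCNA and MKI67 are given beyond that rule, chosen after their values were seen. Alternatives covered pseudocount, filters, scaling, limma-voom on recovered reads, 2 groups only, the replicate block, neighbours subtracted, each library left out and a stricter threshold. Removing the GC and length trend was chosen after seeing the data. The numbers were not treated as pairs in the main fit. Deviations of same-numbered libraries correlated at -0.202 to 0.142, which cannot tell whether they shared a batch, since 2 libraries stood apart. Promoter sequences are from RefSeq.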

Additional observations from a re-analysis of the deposited data

Results flagged for a closer look

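The fold changes against Vector of 16 of the 44 genes differed between the clones, by the limma test of KO2 against KO1. That total lay near the 30.9% of all fitted genes. With equal FPKM sums 11.4% of the 44 were higher and 15.9% lower in KO2, beside 17.8% and 11.1% of all genes. In the main fit 4 were higher in KO2 (9.09%, beside 14.5% of all genes) and 12 lower (27.3%, beside 16.4%). KO2 was higher for POLE2 (log2 difference 0.93), MCM6 (0.58), CCNE1 (0.54) and MCM4 (0.28). KO2 was lower for RRM2 (-1.0), RFC3 (-0.98), RFC1 (-0.89), RFC4 (-0.81), TK1 (-0.65), CDC45 (-0.63), TYMS (-0.63), RRM1 (-0.52), LIG1 (-0.50), MCM3 (-0.41), ORC6 (-0.41) and PRIM2 (-0.41). Each clone is 1 line, so these are differences between 2 lines. Of the 16, MCM6, ORC6, CDC45, RFC1, RFC3, POLE2, RRM2 and CCNE1 passed in all 19 or 20 alternative settings in which they were fitted.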

How the results depend on the processing

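Of 132 fold changes of the 44 genes, the settings other than neighbours subtracted ended at most 17 calls each (adjusted p under 0.01). Counts of genes past the test moved by more than 1.5 times as follows. Without both Vector replicate 3 and KO2 replicate 3 there were 11 higher in KO1 (6 with all libraries), and 7 higher and 22 lower in KO2 (3 and 13). It also turned MCM2 in KO1 to 0.18, the cause of which was not tested. A mean of at least 5 FPKM, which keeps 29 of the 44 genes, gave 2 lower in KO1 (10), 8 lower in KO2 (13) and 2 higher in KO2 against KO1 (4). The 8 lower in KO2 are 27.6% of the 29, beside 18.5% of all genes under that filter, and near the 29.5% of the 44 with the main filter. The 2 higher in KO2 against KO1 are 6.9%, beside 12.5% of all genes. The 2 lower in KO1 are 6.9%, below the 14.8% of all genes lower in KO1 under that filter. With the main filter the share of the 44 lower in KO1 lay above that of all genes. Neighbours subtracted gave 5 lower in KO1 (10). Equal FPKM sums gave 7 lower in KO2 against KO1 (12). An adjusted p under 0.01 gave 6 lower in KO1 (10) and 5 lower in KO2 against KO1 (12). Removing the GC and length trend, chosen after seeing the data, gave 16 lower in KO1 (10; all genes 22.0%, against 16.7%) and 7 higher in KO2 against KO1 (4; all genes 21.0%, against 14.5%). The fit with that trend removed added 19 calls over the 3 comparisons and took away 0. In KO1 the added falls were MCM5 (-0.57), CDT1 (-0.53), RFC2 (-0.35), E2F2 (-0.35), MCM7 (-0.34) and POLE (-0.23). The added rises in KO1 were RFC3 (0.44) and GINS4 (0.24). Leaving out 1 library gave 6 to 8 higher and 6 to 12 lower in KO1, 3 to 7 higher and 11 to 19 lower in KO2, and 3 to 6 higher and 6 to 16 lower in KO2 against KO1. In KO2 the highest counts, 7 and 19, came without Vector replicate 3, where all genes moved too, to 18.8% higher and 21.0% lower. In KO1 the lowest, 6 lower, came without Vector replicate 1 or any 1 KO1 library, and between clones 6 and 7 came without KO1 replicates 1 and 2. With all 9 such fits, 14 of 16 calls in KO2, 12 of 16 in KO1 and 9 of 16 between clones passed each time. The replicate block gave 3 higher and 14 lower in KO2, 6 and 8 in KO1 and 3 and 10 in KO2 against KO1. Deviations of same-numbered libraries correlated at -0.202 to 0.142. Whether libraries of 1 number shared a batch cannot be told from these values, since Vector replicate 3 and KO2 replicate 3 stood apart. Depth limits low genes, as CCNE1 had 34 reads in 1 library.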

Other observations

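Genes of other cell cycle processes were counted the same way, beside 12.9% of all genes higher and 15.0% lower in KO2, 17.4% and 16.7% in KO1, and 14.5% and 16.4% in KO2 against KO1. For the G2 and M phases, which follow replication, 0 of 30 genes rose in KO2 against Vector and 22 fell (73.3%; median log2 fold change -0.54, beside 0.0 for all genes), 8 rose (26.7%) and 1 fell in KO1 (0.18), and 0 were higher and 19 lower (63.3%) in KO2 than in KO1 (-0.50). Without Vector replicate 3 and KO2 replicate 3, 0 rose and 27 fell in KO2, beside 24.1% and 25.4% of all genes in that fit. In KO1 12 rose and 10 fell, beside 29.5% and 27.3% of all genes. Between the clones 0 were higher and 27 lower, beside 21.6% and 26.1%. The count of falls in KO1 thus changed with those libraries, as did the share of all genes, and was not tested against it. PLK1, a mitotic kinase, averaged 8.55 ± 0.779 FPKM in KO2, 26.2 ± 2.69 in KO1 and 15.7 ± 3.15 in Vector (SD, n = 3 each). It fell in KO2 (log2 -0.80, limma adjusted p = 0.00361) and rose in KO1 (0.71, limma adjusted p = 0.00502). KIF2C, a microtubule depolymerase of the centromere, fell in KO2 (-0.53) and rose in KO1 (0.75).

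Of 20 genes of replication stress and repair, 0 rose and 7 fell (35%) in KO2 (median -0.27), and 3 rose and 4 fell in KO1 (-0.15), where the shares of 15% and 20% lay near those of all genes. Without Vector replicate 3 and KO2 replicate 3, 1 rose and 13 fell in KO2, beside 24.1% and 25.4% of all genes in that fit. In KO1 5 rose and 11 fell, beside 29.5% and 27.3%. CHEK1, the checkpoint kinase for stalled forks, fell to 5.22 ± 0.123 FPKM in KO2 and 5.55 ± 0.168 in KO1, against 9.23 ± 0.994 in Vector (log2 -0.71 and -0.64, limma adjusted p = 0.000742 and 0.00102). UNG, which removes uracil from DNA, fell in KO1 (-1.02) and stood at -0.23 in KO2. RAD51AP1, a homologous recombination factor, fell in KO2 (-0.92) and stood at 0.34 in KO1.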
